A study of Rattus norvegicus with 20 samples.

Results

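Male rats of the outbred Wistar strain provided the livers, whose transcriptome was compared between animals given 30% less food for 1 month and control animals of 1 month with no restriction. The comparison was chosen by the array titles and holds 4 of the 20 arrays of the series, 2 for the restricted liver RNA and 2 for the control liver RNA. Restriction started at 6 weeks of age, the labels give 9 weeks as the stage of all 4 samples without tying this age to the start or the end, and every rat, controls included, went without food for 16 h before liver collection. Each side is 1 pool of RNA from 5 rats, so its 2 arrays repeat the measurement of the same RNA and individual rats cannot be seen. The other 16 arrays, used here as a reference, come from pools of 5 rats on 5, 10 or 20% restriction for 1 month and on 0, 5, 10, 20 or 30% restriction for 1 week. The series title names mild food restriction and hepatic gene expression as the question.

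After a meal the liver turns surplus carbohydrate into fatty acids and cholesterol, and the enzymes of both routes are induced largely by the transcription factors SREBP-1c, SREBP-2 and ChREBP, which respond to insulin, sterols and sugar. During a fast the liver oxidises fatty acids, breaks down amino acids and releases glucose, under the influence of glucagon, glucocorticoids and the nuclear receptor PPAR alpha. Feeding time is also a strong signal to the circadian clock of the liver, whose output genes reach into drug metabolism and bile acid synthesis.

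Values are log2 of the deposited array signal after quantile normalization, and differences are the 30% pool minus the control pool of 1 month. Because a condition is 1 pool, a difference of 1 month carries no p-value. It was instead read by a rule of size, which asks for pool means at least 1 apart in log2 and for arrays that do not overlap between the pools. The nearest test that the design allows compared 30% with no restriction over both durations in 10 pool means, and the words rose and fell are kept for genes past its adjusted p of 0.05 (limma, two-sided). In a liver homogenate, fewer cells of a type and less RNA per cell cannot be told apart.

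The deposited signals of the 2 arrays of the 30% pool differed in overall level, with 2% trimmed means of 38.8 and 99.6 signal units, a 2.57-fold difference, against 43.1 and 64.7 in the control pool. The 3' to 5' signal ratio of Gapdh, a sign of RNA and cRNA quality, was 1.439 and 1.166 on the 30% arrays and 1.581 and 1.459 on the control arrays. That of beta-actin was 2.04 and 2.55 against 2.72 and 2.73. The part of these ratios in any difference was tested only by adding the Gapdh ratio to the fit over both durations. After this 199 probe sets passed in place of the 431 given below. Of 55 genes named below that passed the fit, 40 still passed with the ratio added. Those lost were Abcc2, Ablim3, Adh4, Cd14, Cidea, Ehd3, Fkbp5, Hes6, Igf1, Insig1, Me1, Pla2g12a, Ppard, Scd and Slc40a1. After normalization the 2 control arrays correlated at 0.951 and the 2 arrays of the 30% pool at 0.955 across probe sets, and arrays of different pools at 0.927 to 0.939. Between paired arrays of 1 pool the median SD was 0.161 for the control and 0.166 for the 30% pool. The 9 measured hepatocyte markers, among them Alb and Ttr, had mean log2 levels of 11.26 and 11.30 on the control arrays. On the 30% arrays these were 11.35 and 11.38, so the labelled tissue was borne out and the mean of its markers differed little. Single markers differed by -0.39 (Apoa1) to 0.69 (Tat), and none passed the size rule described above.

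Of 9520 probe sets, 472 (4.96%) passed the size rule at 1 month, 266 (2.79%) higher and 206 (2.16%) lower in the restricted pool. Among 7055 named genes, each read by its brightest probe set, 332 (4.71%) passed, 181 (2.57%) higher and 151 (2.14%) lower. The arrays of the pools did not overlap at 3335 named genes (47.3%), so most of the selection came from the size. The median difference of all named genes was -0.0031, and their 5th and 95th percentiles were -0.73 and 0.79. On the signals as deposited the median difference was 0.24 and 79.6% of 431 calls were higher, against 56.4% after normalization, so the balance between directions depends on the scaling. Without the second 30% array 769 probe sets passed, 359 higher and 410 lower, so the majority direction also turned with 1 array, and without the second control array 739 passed, 426 higher and 313 lower. Among the genes named below, Akr1c14, Cidea, Cish and Ehd3 lost the call without the first control array, and Abcc2, Abcg8, Ddit4, Hps4, Irs2, Slc40a1 and Socs3 without the second. Fbxo34, Fkbp5, Per1, Socs2 and Tnni1 lost it without the first 30% array, and Akr1c14, Ccnb1, Cish, Ehd3, Ifit1, Mapre3, Ppara, Slc40a1 and Tmem171 without the second. On the signals as deposited Abcc2, Ccnb1, Cish, Ddit4, Ehd3, Fbxo34, Hes6, Ighl2, Ppara, Pygl, Socs2 and Tnni1 lost it.

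The differences of 1 month were set beside those of 1 week, measured in other rats with their own control pool. Of the 472 probe sets, 355 (75.2%) had the same sign at 1 week, against 63.2% of all tested probe sets, and 165 passed the size rule there in the same direction while 13 passed it in the opposite one. At 1 week 394 named genes (5.58%) passed. Brighter probe sets recurred more often, and so did the brighter probe sets that did not pass. In the brightest 20% of the array, 115 probe sets (3.62%) passed and 112 of them (97.4%) had the same sign at 1 week, against 73.1% of all tested probe sets of that band. In the next 20%, 75 of 85 (88.2%) did, against 61.3%, and in the dimmest 20% tested, where 272 (8.57%) passed, 168 (61.8%) did, against 55.1% of all tested probe sets of that band. Dim genes that passed in the 1 month pools alone are therefore the least repeated of the differences reported here. In the fit over both durations 431 probe sets (4.53%) passed the adjusted p, 233 (2.45%) rising and 198 (2.08%) falling with 30% restriction. The fit includes the pools of 1 month that selected the 472 probe sets, so an overlap with them is not a separate repeat. Of the 472, 183 (38.8%) also passed its adjusted p in the same direction. The number depended on single pools, with 107 probe sets past the threshold without the 30% pool of 1 week, 123 without the control pool of 1 month and 192 without the control pool of 1 week. Among the genes named below that passed it, Abcg5, Acaca, Acly, Akr1c14, Cmtm6, Cpt1a, Dhcr7, Ech1, Eci1, Elovl6, Fasn, Fdps, Hacl1, Hsd17b2, Mt2A, Per2, Pmvk, Pnpla3, Por, Pygl, Slc34a2, Slc6a6, Srebf1, Sult2a6 and Usp2 passed with any 1 of the 10 pools left out. Without the 30% pool of 1 month Abcc2, Ablim3, Adh4, Cd14, Cidea, Ehd3, Fkbp5, Hes6, Igf1, Me1, Pla2g12a, Ppard and Scd no longer passed. Without the control pool of 1 month this was also so for Cpt2, Cyp7a1, Gckr, Hspa5, Kynu, Lama3, Nr1d2, Sds, Slc40a1, Trim36, Tubb2a and Ugt2b1. Leaving out the 30% pool of 1 week removed 23 of these genes, among them Cyp2c12, Insig1 and Nat8. Leaving out the control pool of 1 week removed 15, among them Dbp, Fabp5 and Insig1. The others of these 15 were Abcc2, Cd14, Cidea, Ehd3, Fkbp5, Hes6, Hspa5, Igf1, Kynu, Me1, Trim36 and Tubb2a.

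**Figure D1:**
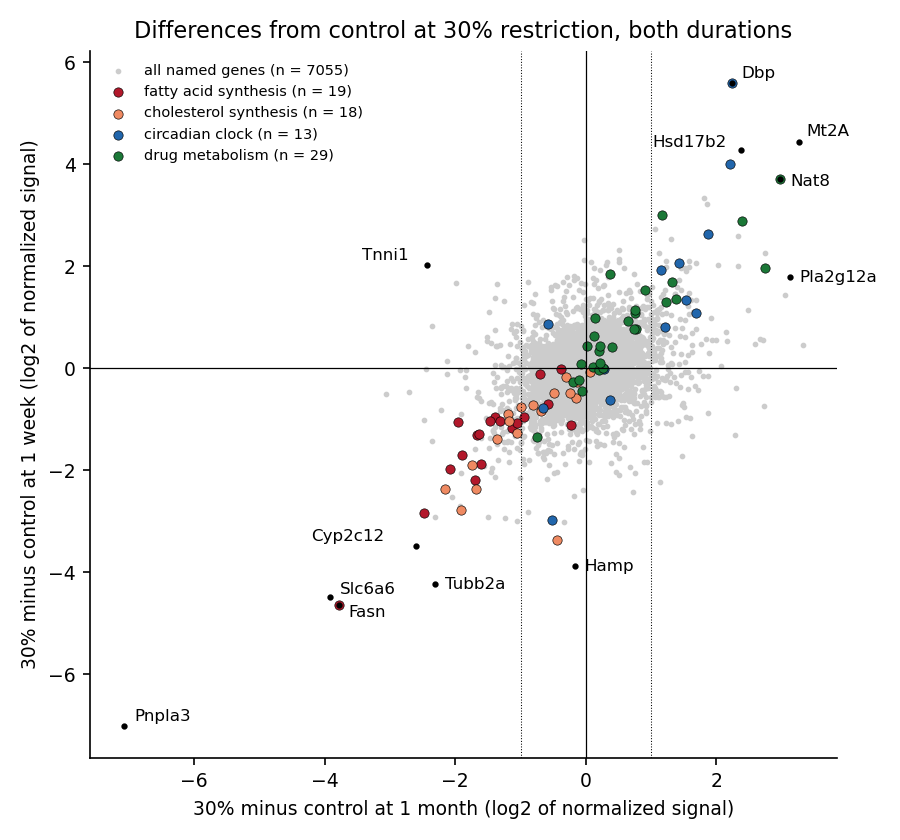
Difference of the 30% pool from its control pool at 1 month (horizontal axis) and at 1 week (vertical axis), both in log2 of normalized signal, for 7055 named genes, 1 point a gene. Dotted lines mark a difference of 1 at 1 month. Genes of fatty acid and cholesterol synthesis lie at the lower left, most clock genes and many drug metabolism genes at the upper right, and Hamp and Tnni1 lie off the diagonal.

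Fatty acid synthesis had the largest share of members past the size rule of all lists examined. All 19 measured members were below the control, 14 passed the size rule as lower (against 2.14% of named genes) and 0 as higher, and the median difference was -1.46. In the fit over both durations 15 of the 19 fell. The 14 were Fasn, Acly, Acaca, Scd, Elovl5, Elovl6, Me1, Pklr, Srebf1, Slc25a1, Acss2, Pgd, Tkt and Gckr, which cover the supply of acetyl-CoA and NADPH, the synthesis of the chain, its elongation and desaturation, and the control of the pathway.

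Fasn, the fatty acid synthase, read 10.04 and 9.96 on the control arrays and 6.21 and 6.21 on the 30% arrays. The groups were far apart and the arrays of each pool close, a difference of -3.79, or 13.8-fold lower. Over both durations Fasn fell by 4.21 ± 0.461 (SE, n = 10 pools, limma adjusted p = 0.0011), and a second probe set differed by -3.49 at 1 month. Acly, which makes cytosolic acetyl-CoA from citrate, read 10.13 and 10.37 against 7.73 and 7.81, 5.56-fold lower (over both durations -2.66 ± 0.229, adjusted p = 0.000833). Acaca, the acetyl-CoA carboxylase of the committed step, read 8.34 and 8.33 against 6.67 and 6.67, 3.18-fold lower (-1.49 ± 0.174, adjusted p = 0.00141), and its second probe set, at -0.83, did not pass the size rule. These 3 enzymes form the direct line from citrate to palmitate.

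Me1, the malic enzyme that supplies NADPH, read 8.58 and 8.54 in the control and 6.41 and 6.80 at 30%, a difference of -1.96. Its second probe set differed by -3.19 at 1 month, so the direction held and the size did not. Pgd and Tkt, enzymes of the pentose phosphate pathway, differed by -1.61 and -1.05. Slc25a1, the mitochondrial citrate carrier, differed by -1.31 and Acss2, which activates acetate, by -1.13.

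Chain-modifying enzymes were lower by less than Fasn. Scd, the stearoyl-CoA desaturase, was among the most abundant members, at 11.88 and 11.90 in the control and 10.48 and 10.52 at 30%, and differed by -1.39. Elovl6, an elongase of saturated chains, read 5.67 and 5.49 against 3.63 and 4.16, a difference of -1.69, and Elovl5 differed by -1.64. The desaturases of polyunsaturated chains did not pass, with Fads1 at -0.94 and Fads2 at -0.39. Scd fell over both durations by 1.17 ± 0.196 (adjusted p = 0.00861) and Elovl6 by 1.94 ± 0.268 (adjusted p = 0.0033).

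Of the regulators, Srebf1, which encodes SREBP-1, read 9.39 and 9.33 in the control pool and 7.70 and 7.22 in the restricted pool, 3.73-fold lower, and fell over both durations by 1.80 ± 0.169 (adjusted p = 0.000844). Gckr, which encodes the regulatory protein that binds glucokinase, read 8.64 and 8.98 against 6.67 and 6.79, 4.24-fold lower. Pklr, the liver pyruvate kinase, differed by -1.46. Mlxipl, which encodes ChREBP, differed by -0.22 at 1 month and -1.11 at 30% for 1 week and Thrsp by -0.70 at 1 month, and neither passed at 1 month.

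Pnpla3, a lipid droplet protein with lipase and acyltransferase activity, had the largest difference of all named genes. Its deposited signals were 357.2 and 430.2 units on the control arrays and 0.8 and 15.9 units on the 30% arrays. In log2 terms the control read 9.00 and 8.68 and the restricted pool 0.26 and 3.30. The restricted pool lay under 11.7 units, the lowest mean signal tested, where values have no reliable order, so the fold is given from pool means raised to that level, as at least 39.4-fold lower. The same bound rule applies wherever a fold is written as at least. Pnpla3 had a mean level of 4.08 at 5% for 1 month, lay under the lowest mean signal tested at 10 and 20% and at 30% for 1 week, and it fell over both durations (adjusted p = 0.000833). No other measured gene of triglyceride synthesis and droplets passed the size rule as lower. Of 11 measured members 1 passed as lower, Pnpla3 itself, and 1 as higher (18.2% in all, against 4.71% of named genes). The list median was -0.04, or 0.21 on the signals as deposited. Plin2, which coats droplets, differed by -0.96, Gpam by -0.52 and Dgat2 by 0.35, and none passed. Cidea, another droplet protein, read 3.20 and 4.41 in the control and 5.24 and 4.98 at 30%, and its difference of 1.30 did not pass without the first control array.

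**Figure D2:**
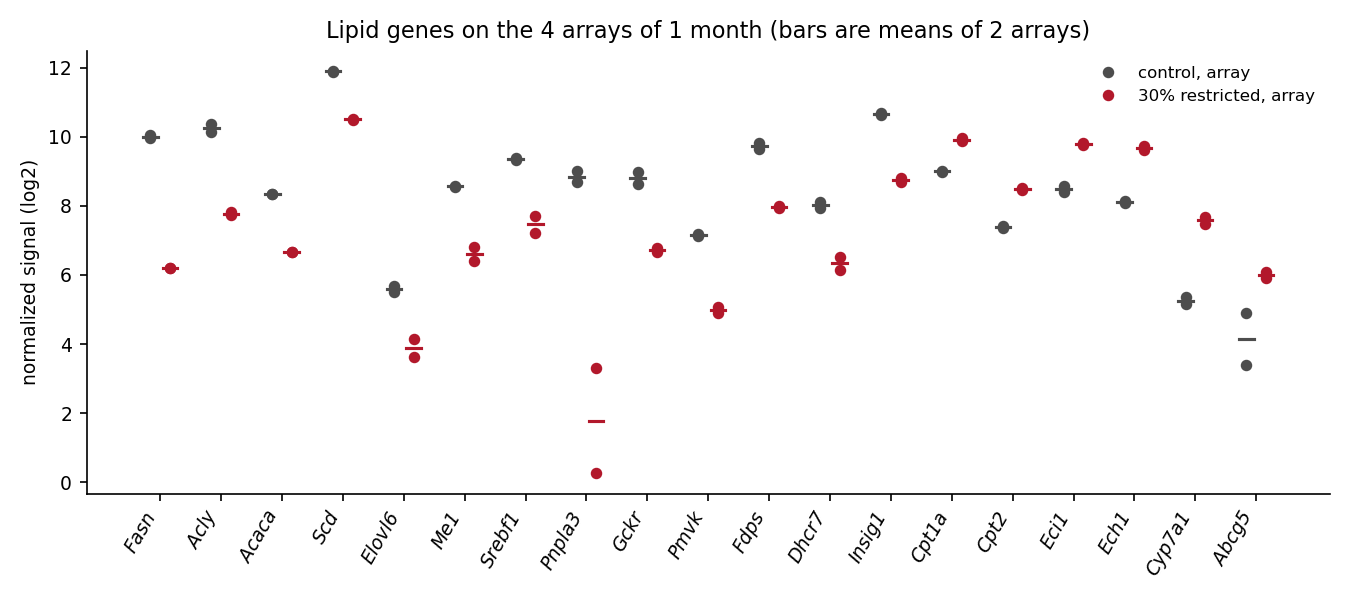
Normalized signal (log2) of 19 lipid genes on the 4 arrays of 1 month, 2 control arrays (grey) and 2 arrays of the 30% pool (red), with short bars at the means of 2 arrays. Genes of fatty acid and cholesterol synthesis are lower in the 30% pool, oxidation genes, Cyp7a1 and Abcg5 are higher, and the arrays of a pool lie close together except for Pnpla3 and the control arrays of Abcg5.

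Cholesterol synthesis genes passed the size rule in 1 direction only. Of 18 measured members 17 were below the control, and the median was -0.90. The size rule was passed by 8 as lower (44.4%, against 2.14% of named genes) and by 0 as higher. Over both durations 9 fell. On the signals as deposited 5 passed, with a median of -0.63. Pmvk, the phosphomevalonate kinase, read 7.19 and 7.12 in the control and 4.91 and 5.08 at 30%, 4.47-fold lower, and fell over both durations by 2.26 ± 0.228 (adjusted p = 0.000945). Fdps, the farnesyl diphosphate synthase, read 9.80 and 9.63 against 7.942 and 8.003, 3.35-fold lower (-1.82 ± 0.166, adjusted p = 0.000833). Dhcr7, the last enzyme of the pathway, read 8.12 and 7.92 against 6.52 and 6.14, 3.22-fold lower. Cyp51, Lss, Nsdhl and Acat2 differed by -1.36, -1.19, -1.17 and -1.06. Mvk (-0.15), Mvd (-0.44), Sc5d (-0.14), Ebp (-0.24) and Tm7sf2 (-0.30), also enzymes of the route, did not pass. Nor did Fdft1 (-0.99), Msmo1 (-0.81) and Idi1 (-0.68), of which Fdft1 and Msmo1 fell over both durations. At 30% for 1 week Mvd differed by -3.37.

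Insig1, which encodes a sterol-sensing protein that holds SREBPs in the endoplasmic reticulum and is itself an SREBP target, read 10.67 and 10.63 in the control and 8.69 and 8.80 at 30%, 3.76-fold lower. Its differences in the other restricted pools of 1 month were -3.38 at 5%, -2.40 at 10% and -1.80 at 20%, against the same control pool. Srebf2, which encodes the SREBP of sterol genes, differed by -0.49 and did not pass. Hsd17b7 (0.07) was the 1 member above the control.

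The bases before the start of Fdps are shown because Fdps was lower in all restricted pools of 1 month (-1.10, -1.44, -1.45 and -1.75 at 5, 10, 20 and 30%) and sterol genes are textbook targets of SREBP acting together with NF-Y, which binds CCAAT boxes. The sequence is the 250 bases before the RefSeq start in GRCr8, chr2:176804817-176805066, minus strand, 5' to 3', with matches to CCAAT on either strand in capitals.
Fdps: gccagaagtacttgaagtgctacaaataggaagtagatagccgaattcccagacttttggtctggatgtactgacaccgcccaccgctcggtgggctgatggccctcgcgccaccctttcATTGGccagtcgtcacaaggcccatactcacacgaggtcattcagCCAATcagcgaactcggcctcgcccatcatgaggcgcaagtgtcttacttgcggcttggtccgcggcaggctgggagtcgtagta
The 2 matches lie 130 to 126 and 85 to 81 bases before the start. Of the 22 genes of fatty acid and cholesterol synthesis that passed the size rule, 18 had an entry in the promoter table and 10 (55.6%) held CCAAT within the 250 bases, against 36.1% of 27457 genes. The classical sterol response element was found in 0 of the 18 and in 0.0983% of all genes. A match is a run of letters and says nothing about binding.

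Fatty acid oxidation genes were higher in a few members. Of 24 measured mitochondrial genes 3 passed as higher (against 2.57% of named genes) and 0 as lower, with a median of 0.11. Of 16 peroxisomal genes 3 passed as higher and 0 as lower, with a median of 0.44, and 5 passed on the signals as deposited. Ech1, an isomerase of unsaturated chains found in peroxisomes and mitochondria, read 8.13 and 8.09 in the control and 9.74 and 9.62 at 30%, 2.98-fold higher, and rose over both durations by 1.78 ± 0.161 (adjusted p = 0.000833). Eci1, a mitochondrial enoyl-CoA isomerase, read 8.57 and 8.40 against 9.77 and 9.81, 2.47-fold higher (1.49 ± 0.127, adjusted p = 0.000833). Cpt2, the inner carnitine palmitoyltransferase, read 7.42 and 7.36 against 8.45 and 8.50, 2.13-fold higher. Hacl1, which shortens 2-hydroxy and branched chains, was 2.35-fold higher and rose over both durations (1.61 ± 0.171, adjusted p = 0.00108).

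Cpt1a, the outer carnitine palmitoyltransferase that controls entry of fatty acids into mitochondria, read 9.02 and 8.97 in the control and 9.87 and 9.95 at 30%, a difference of 0.91 that missed the size rule, while a second probe set passed at 1.24. Over both durations Cpt1a rose by 1.03 ± 0.11 (adjusted p = 0.00108). Crat, the carnitine acetyltransferase, was 2.46-fold higher at 1 month, and its difference at 1 week was 0.41. Ppara, which encodes PPAR alpha, passed the size rule with both pools under the lowest mean signal tested, so no fold is given. The core chain of mitochondrial oxidation differed little, with Acadm at -0.11, Acadl at 0.10, Acadvl at 0.16, Hadha at 0.21 and Hadhb at 0.39. Crot, a peroxisomal carnitine transferase, was lower at -0.94. Pdk4, the pyruvate dehydrogenase kinase induced by fasting, read 6.04 and 6.10 in the control and 6.05 and 6.08 at 30%, while it differed by -0.80, -1.02 and -0.97 at 5, 10 and 20% from the same control and by -1.40 at 30% for 1 week. Fgf21, a fasting hormone of the liver, differed by -0.21. The signs of Pdk4 and Fgf21 were positive on the signals as deposited.

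Bile acid and sterol disposal genes differed at single steps. Of 21 measured members 3 passed as higher and 1 as lower (19.0% in all, against 4.71% of named genes), with a median of 0.08. Cyp7a1, which catalyses the limiting step from cholesterol to bile acids, read 5.35 and 5.16 in the control and 7.48 and 7.68 at 30%, 5.02-fold higher, and rose over both durations by 2.46 ± 0.407 (adjusted p = 0.00839). Cyp8b1, which sets the share of cholic acid, differed by 0.05, Cyp27a1 by 0.72 and Nr0b2, a repressor of Cyp7a1, by -0.01. Abcc2, a canalicular exporter of conjugates, read 8.66 and 8.81 against 7.62 and 7.73, a difference of -1.07. At 1 month Abcc2 followed the level of restriction, with differences of -0.16, -0.46, -0.66 and -1.07 at 5, 10, 20 and 30%. Its slope over 30 percentage points was -1.04 ± 0.132 (limma adjusted p = 0.0293), and the call by size was lost without the second control array and on the signals as deposited.

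Abcg5 and Abcg8 encode the 2 subunits of the transporter that secretes sterols into bile. Abcg5 read 4.90 and 3.39 in the control and 5.92 and 6.08 at 30%, 3.62-fold higher, with the control arrays well apart, and rose over both durations by 2.54 ± 0.323 (adjusted p = 0.00233). Abcg8 read 3.20 and 2.19 against 4.10 and 4.03, at least 1.44-fold higher, and did not pass the fit over both durations (adjusted p = 0.0524). The call for Abcg8 was lost without the second control array. The pair is transcribed in opposite directions from starts 205 bases apart, and the shared stretch is shown because both members passed together. It is chr6:15717731-15717935 of GRCr8, plus strand, read toward Abcg5, with the 1 match to CCAAT in capitals.
Abcg5: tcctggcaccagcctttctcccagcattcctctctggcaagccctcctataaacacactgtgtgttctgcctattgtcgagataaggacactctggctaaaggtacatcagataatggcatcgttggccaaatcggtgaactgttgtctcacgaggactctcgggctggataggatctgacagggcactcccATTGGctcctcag
The match lies 13 to 9 bases before the start of Abcg5.

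Of 13 measured clock genes 7 passed as higher (53.8%, against 2.57% of named genes) and 0 as lower, and 3 lay below the control. The list median was 1.21, close to the 1.09 of the 1 week pools. Over both durations 6 rose, against 2.45% of all probe sets. Per2, a repressor of the clock loop, read 3.73 and 4.37 in the control and 6.10 and 6.41 at 30%, 4.61-fold higher, and rose over both durations by 3.10 ± 0.335 (adjusted p = 0.00108). Usp2, a rhythmic deubiquitinase, read 5.55 and 5.78 against 7.74 and 7.34, 3.67-fold higher. Its second probe set, at 0.74, did not pass the size rule. Nr1d2, which encodes REV-ERB beta, read 4.98 and 4.90 against 6.14 and 6.60, 2.69-fold higher, and its 2 other probe sets passed in the same direction. Cry2 and Hlf differed by 1.53 and 1.15. Per1 read 3.29 and 2.61 against 5.43 and 3.85, at least 2.14-fold higher, with the arrays of the 30% pool apart and the call lost without the first of them. Tef differed by 1.21 with overlapping arrays.

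Dbp, a PAR bZIP transcription factor driven directly by the clock, read 3.32 and 2.34 in the control and 4.69 and 5.44 at 30%, at least 2.87-fold higher. Its level was well under that in the other restricted pools of 1 month, where Dbp had mean levels of 8.12, 7.91 and 7.43 at 5, 10 and 20%, against 5.06 at 30%. At 30% for 1 week its mean level was 7.66. Bmal1, of the positive arm of the loop, read 5.35 and 5.45 in the control and 4.87 and 4.87 at 30%, a difference of -0.52, whereas its pool mean was 3.77 at 20% and under the lowest mean signal tested at 5 and 10%. Nr1d1, which encodes REV-ERB alpha, read 4.14 and 4.44 against 3.49 and 3.92, a difference of -0.58, and was above the control in the other pools of 1 month (1.81, 1.71 and 0.32). Clock, the partner of Bmal1, differed by -0.65, and a second probe set of Clock by 0.11. Members of the same loop thus did not share a direction against the control in the 30% pool of 1 month, and Bmal1, Clock and Nr1d1 did not pass.

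The bases before the start of Per2 are shown because Per2 was the clock gene with the largest fold that needs no bound, and because Dbp and its relatives bind D-boxes. The stretch is chr9:99496994-99497243 of GRCr8, minus strand, with the match to the D-box TTANGTAA in capitals.
Per2: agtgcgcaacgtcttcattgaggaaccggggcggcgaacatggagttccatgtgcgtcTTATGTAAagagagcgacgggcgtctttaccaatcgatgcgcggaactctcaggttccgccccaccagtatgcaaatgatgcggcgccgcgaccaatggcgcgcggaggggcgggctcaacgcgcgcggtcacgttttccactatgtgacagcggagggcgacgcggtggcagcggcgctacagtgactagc
The match lies 192 to 185 bases before the start. Of 7 clock genes that passed the size rule 6 had an entry, 1 of them (16.7%) held the D-box against 2.19% of all genes, and 0 held the E-box CACGTG, which 6.18% of all genes hold.

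**Figure D3:**
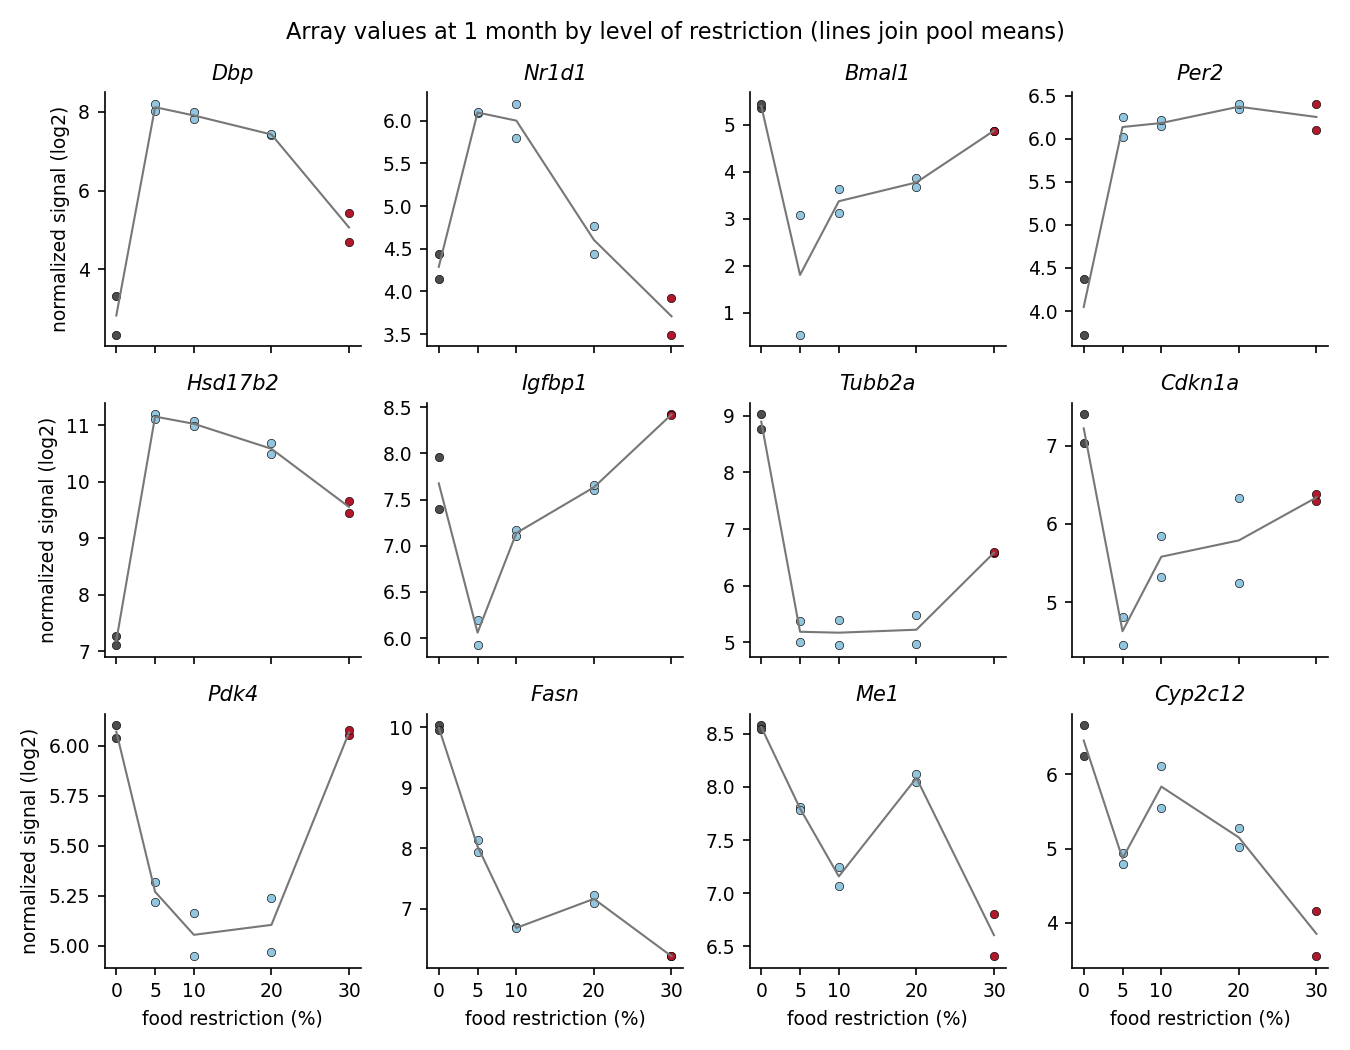
Normalized signal (log2) of 12 genes on the 10 arrays of 1 month, by percent restriction, with control arrays in grey, the arrays of 5, 10 and 20% in blue and those of 30% in red, and lines through the means of 2 arrays. Vertical scales differ between panels. Dbp, Bmal1, Hsd17b2, Tubb2a and Pdk4 at 30% lie closer to the control than the milder pools do, Nr1d1 and Igfbp1 lie past it, Per2 stays at the level of the other restricted pools, and Fasn, Me1 and Cyp2c12 reach their lowest level.

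Drug and steroid metabolism held some of the largest increases. Of 29 measured genes of drug metabolism 7 passed as higher (24.1%, against 2.57% of named genes) and 0 as lower. The list median was 0.38 (0.63 on the signals as deposited). Over both durations 13 rose, against 2.45% of all probe sets, and the 1 week median was 0.77. Nat8, an N-acetyltransferase of the endoplasmic reticulum, read 4.94 and 5.36 in the control and 8.20 and 8.06 at 30%, 7.87-fold higher, and rose over both durations by 3.35 ± 0.485 (adjusted p = 0.00407). Por, the reductase that passes electrons to cytochromes P450, read 7.55 and 7.25 against 9.89 and 9.69, 5.24-fold higher (2.63 ± 0.315, adjusted p = 0.00152), and its second probe set differed by 2.64. Adh4, an alcohol dehydrogenase, read 4.33 and 2.87 against 6.30 and 6.38, 6.69-fold higher, with a wide gap between the control arrays. Ugt2b1, a glucuronosyltransferase, was 2.60-fold higher, and Fmo1, Nr1i3, which encodes the xenobiotic receptor CAR, and Inmt differed by 1.32, 1.22 and 1.16. Alas1, the first enzyme of haem synthesis, differed by 0.14 in the 30% pool and by 0.84 and 0.76 in the pools of 10 and 20%. Glutathione transferases stayed near the control, with Gsta1 at 0.21, Gsta4 at 0.11, Gstm1 at -0.20 and Gstp1 at 0.03.

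Hsd17b2, which inactivates oestradiol and testosterone, read 7.27 and 7.10 in the control and 9.65 and 9.45 at 30%, 5.17-fold higher, and rose over both durations by 3.33 ± 0.351 (adjusted p = 0.00108). In the other restricted pools of 1 month it was higher still, at 3.97, 3.84 and 3.40 above the same control. Among genes that differ between the sexes of rats, Sult2a6, a hydroxysteroid sulfotransferase, read 4.94 and 4.80 against 6.98 and 7.43, 5.04-fold higher (2.17 ± 0.295 over both durations, adjusted p = 0.003). Cyp2c12, the female-predominant steroid hydroxylase, read 6.25 and 6.66 against 4.16 and 3.55, 6.08-fold lower (-3.05 ± 0.439, adjusted p = 0.00391). Cyp2c11, its male-specific counterpart, differed by -0.12, a sign that was positive on the signals as deposited. Of the 15 measured members of this list 2 passed as higher, Sult2a6 and Akr1c14, and 1 as lower. Together these were 20.0%, against 4.71% of named genes, and the list median was 0.02.

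Metallothioneins are small proteins that bind zinc and copper and are induced by metals and glucocorticoids. Mt2A had the largest increase among named genes with both pools above the lowest mean signal tested, at 6.78 and 6.52 in the control and 9.96 and 9.88 at 30%, 9.61-fold higher. It rose over both durations by 3.85 ± 0.446 (adjusted p = 0.00141), and its differences at 5, 10 and 20% for 1 month were 2.60, 2.63 and 2.08. Mt1 read 2.44 and 2.50 against 4.74 and 4.06, at least 1.82-fold higher, and did not pass the fit over both durations (adjusted p = 0.195). Of 14 measured genes of glucocorticoid and metal response 4 passed as higher (28.6%, against 2.57% of named genes) and 0 as lower. The 4 were Mt2A, Mt1, Per1 and Fkbp5, with 2 passing without the first array of the 30% pool. Fkbp5, a chaperone of the glucocorticoid receptor, read 6.11 and 6.05 against 7.27 and 6.96, 2.05-fold higher, while at 5, 10 and 20% it differed by -0.05, 0.26 and 0.28 from the same control. Tsc22d3, another glucocorticoid target, differed by 0.09, Sgk1 by 0.15 and Slc30a1, a zinc exporter induced by metals, by 0.39.

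The bases before both metallothionein genes are shown because both passed and because metal response elements share the core TGCGCNC, which is marked in capitals on either strand. Both are on chromosome 19 of GRCr8, minus strand, Mt1 at chr19:10832976-10833225 and Mt2A at chr19:10838709-10838958.
Mt1: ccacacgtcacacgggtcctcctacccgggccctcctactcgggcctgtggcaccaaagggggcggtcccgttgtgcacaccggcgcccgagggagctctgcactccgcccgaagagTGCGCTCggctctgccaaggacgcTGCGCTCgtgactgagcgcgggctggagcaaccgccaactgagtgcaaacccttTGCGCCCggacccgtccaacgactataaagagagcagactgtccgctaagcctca
Mt2A: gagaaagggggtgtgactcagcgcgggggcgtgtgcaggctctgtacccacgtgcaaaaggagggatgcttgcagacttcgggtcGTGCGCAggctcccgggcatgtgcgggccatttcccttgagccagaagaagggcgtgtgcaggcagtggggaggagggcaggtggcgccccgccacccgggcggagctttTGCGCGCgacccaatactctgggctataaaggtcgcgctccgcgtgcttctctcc
Mt1 holds 3 matches and Mt2A 2, and in both the nearest one starts 55 bases before the gene. The core occurs in 13.3% of all 27457 genes of the table.

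Amino acid and glucose genes showed single large differences within quiet lists. Of 34 measured genes that break down amino acids or make urea 2 passed as higher and 1 as lower. Together these were 8.82%, against 4.71% of named genes, and the list median was 0.16. Sds, the serine dehydratase that feeds serine into gluconeogenesis, read 8.09 and 7.89 in the control and 9.95 and 10.09 at 30%, 4.08-fold higher, and rose over both durations by 2.02 ± 0.358 (adjusted p = 0.0116). Got1, the cytosolic aspartate aminotransferase, read 9.04 and 8.81 against 10.04 and 10.07, 2.19-fold higher, and did not pass over both durations (adjusted p = 0.169). Kynu, the kynureninase of tryptophan breakdown, read 9.78 and 9.95 against 8.35 and 8.27, 2.94-fold lower (-1.73 ± 0.335, adjusted p = 0.0171). In the urea cycle Cps1 differed by 0.14, Otc by -0.07, Ass1 by -0.03, Arg1 by 0.35 and Asl, the argininosuccinate lyase, by 0.86, and none passed the size rule. Asl rose over both durations (adjusted p = 0.0318). Cth, which makes cysteine from cystathionine, differed by -0.87. Tat, the tyrosine aminotransferase induced by glucocorticoids, differed by 0.69.

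Pck1, the rate-limiting enzyme of gluconeogenesis, read 11.13 and 11.06 in the control and 11.17 and 11.24 at 30%, a difference of 0.11. Of 14 measured genes of gluconeogenesis and glycogen, 12 were above the control with a median of 0.27. As higher 0 passed and as lower 1 (7.14% in all, against 4.71% of named genes). That 1 was Pygl, the liver glycogen phosphorylase, which read 9.20 and 9.39 against 8.10 and 8.20, 2.21-fold lower. It fell over both durations by 1.05 ± 0.115 (limma adjusted p = 0.00108). On the signals as deposited Pygl passed neither the size rule nor this fit. Gys2, the liver glycogen synthase, differed by 0.99. In the amino acid response, driven by ATF4, 1 of 15 members passed as higher and 1 as lower (13.3%, against 4.71% of named genes). The list median was -0.27 (-0.03 as deposited) against 0.53 at 1 week. Slc38a2, an amino acid transporter, was 2.29-fold higher at 6.53 and 6.48 against 7.64 and 7.76. Ddit4, an inhibitor of mTORC1 signalling, was 2.10-fold lower, with control arrays at 4.15 and 5.27, and lost the call without the second of them.

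The insulin and growth hormone axis split. Of 21 measured members 3 passed as higher and 2 as lower (23.8% in all, against 4.71% of named genes). The list median was 0.00, and 2 passed in all on the signals as deposited. Irs2, an insulin receptor substrate, read 4.52 and 2.45 in the control and 5.39 and 5.37 at 30%, at least 3.57-fold higher, and Socs3, an inhibitor of cytokine signalling, 3.94 and 1.70 against 4.42 and 4.75, at least 2.05-fold higher. Both calls were lost without the second control array. Cish, a growth hormone target, read 3.78 and 4.24 against 5.00 and 5.21, 2.14-fold higher, whereas Socs2, another such target, read 4.93 and 5.21 against 3.45 and 4.08, 2.47-fold lower. Cish lost the call without the first control array or the second array of the 30% pool, Socs2 lost it without the first array of the 30% pool, and both lost it on the signals as deposited. Stat5b differed by -1.06. Igf1, the circulating growth factor made by hepatocytes, read 11.03 and 11.04 against 10.68 and 10.76, a small difference of -0.31. In the fit over both durations, which includes these pools, Igf1 fell (-0.37 ± 0.0815, adjusted p = 0.0334). It did not pass on the signals as deposited, where the difference was -0.044. A second probe set of Igf1 differed by -0.26 at 1 month and did not pass the fit (limma adjusted p = 0.127). Igfbp1, which binds Igf1 and is repressed by insulin, read 7.96 and 7.39 against 8.42 and 8.42, a difference of 0.75. In the other restricted pools of 1 month Igfbp1 was at or under the control, at -1.61, -0.54 and -0.04 for 5, 10 and 20%.

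**Figure D4:**
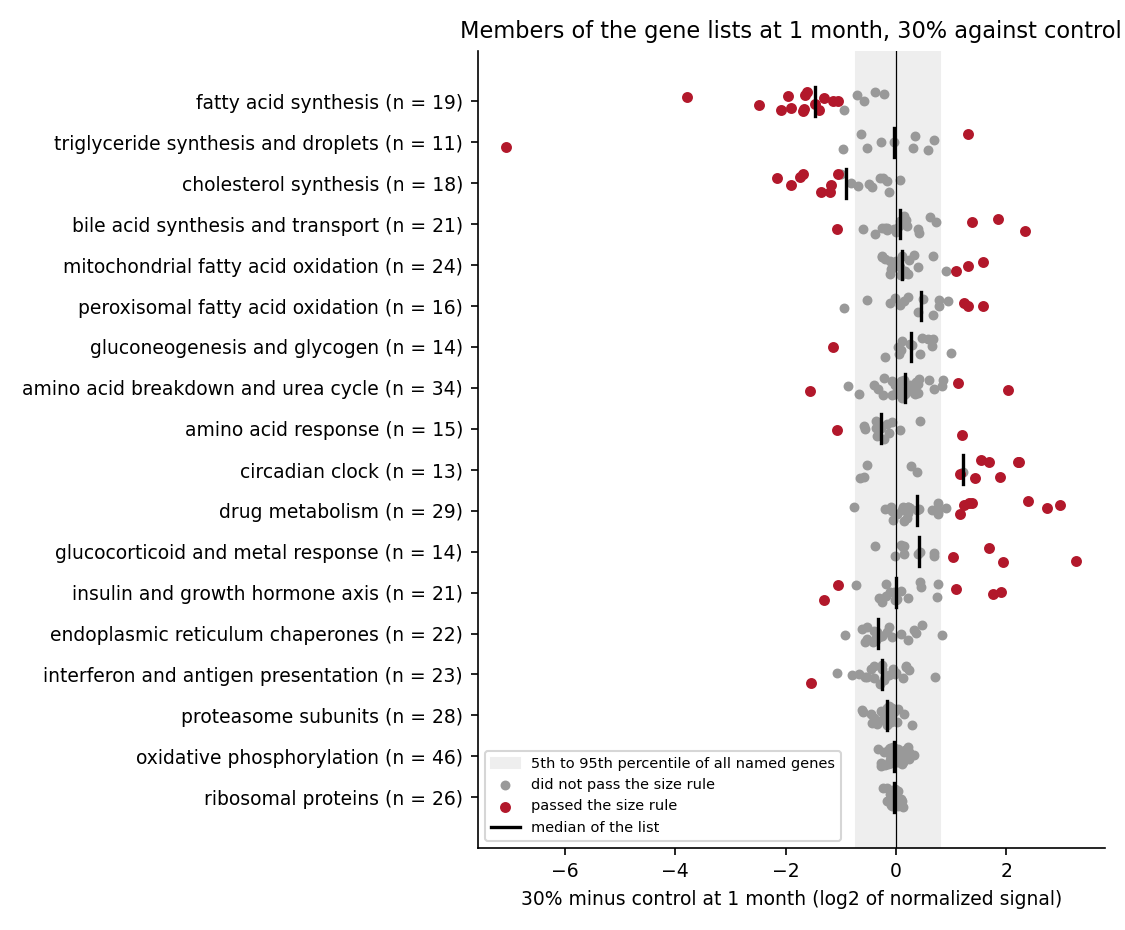
Difference of the 30% pool from control at 1 month (log2 of normalized signal) for each measured member of 18 gene lists, 1 point a gene, red where it passed the size rule, with the list median as a bar and the 5th to 95th percentile of all named genes shaded. The medians of fatty acid synthesis (-1.46), cholesterol synthesis (-0.90) and the clock (1.21) lie away from 0, and the members of ribosomal proteins, oxidative phosphorylation and the proteasome lie within the shaded range of single genes.

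Endoplasmic reticulum chaperones stayed within the size rule. None of 22 measured members passed the size rule, against 4.71% of named genes. Of the 22, 16 were below the control, 6 above, and the median was -0.33 (-0.07 as deposited). Hspa5, the main chaperone of the compartment, read 10.14 and 10.00 in the control and 9.56 and 9.51 at 30%, a difference of -0.53, and fell over both durations by 0.63 ± 0.121 (adjusted p = 0.017), though not on the signals as deposited. Hyou1 differed by -0.93, Manf by -0.62, Calr by -0.52 and Edem1, which directs misfolded glycoproteins to degradation, by 0.83. Over both durations 5 of the 22 fell and 1 rose, against 2.08% and 2.45% of all probe sets. Proteasome subunits had a median of -0.16 (0.08 as deposited), 24 of 28 below the control and 0 past the rule, against 4.71% of named genes. Of 23 interferon and antigen presentation genes 1 (4.35%) passed, against 4.71% of named genes. It was Ifit1, at least 2.32-fold lower, and the list median was -0.26, or 0.00 as deposited. Psmb8 and Psmb9, subunits of the immunoproteasome, differed by -0.79 and -0.67. Ifit1 read 4.30 and 5.22 against 4.03 and 2.41, and its call was lost without the second array of the 30% pool.

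No member of the housekeeping and secretory lists passed the size rule. Only 4.71% of named genes passed it, so 0 in a short list says little. The lists held 26 ribosomal proteins, 46 subunits of oxidative phosphorylation, 21 acute phase and complement genes and 15 apolipoprotein genes. They also held 21 antioxidant genes, 21 autophagy and lysosome genes and 12 heat shock proteins. Ribosomal proteins ranged from -0.24 to 0.13 and oxidative phosphorylation from -0.32 to 0.32, which shows the scatter among abundant genes in this comparison. Keap1, the sensor of oxidative stress, was the most distant antioxidant gene at -0.89. Apoa1 differed by -0.39 and Lipc, the hepatic lipase, by -0.40.

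Of 17 measured cell cycle genes 1 passed as higher and 2 as lower (17.6% in all, against 4.71% of named genes). Gadd45a, induced by stress and growth arrest, read 4.60 and 4.29 in the control and 6.38 and 6.17 at 30%, 3.57-fold higher, with differences of 2.10, 1.83 and 1.63 in the other restricted pools of 1 month and 0.58 at 30% for 1 week. Ccnb1 and Ccnb2, the cyclins of mitosis, were 2.07-fold and at least 2.21-fold lower, and Ccnb1 lost the call without the second 30% array, on the signals as deposited and with normalization over the 4 arrays alone. Cdkn1a, the cell cycle inhibitor p21, read 7.04 and 7.40 against 6.29 and 6.39, a difference of -0.88, and a second probe set passed at -1.07. At 30% for 1 week Cdkn1a differed by -2.82.

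In iron metabolism 1 of 14 measured members (7.14%) passed, against 4.71% of named genes. Slc40a1, the iron exporter ferroportin, read 7.13 and 6.92 in the control and 8.02 and 8.24 at 30%, 2.15-fold higher, and rose over both durations by 1.12 ± 0.177 (adjusted p = 0.00626). Its call at 1 month was lost without the second array of either pool, and its other probe sets differed by 0.69 and 0.96 and did not pass. Hamp, which encodes hepcidin, the hormone that degrades ferroportin, read 11.17 and 10.99 against 10.91 and 10.92. Its difference of -0.17, positive on the signals as deposited, stood against -3.88 at 30% for 1 week.

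Some of the largest differences were outside these lists. Slc6a6, the taurine transporter, read 7.61 and 7.68 in the control and 3.76 and 3.70 at 30%, 15.1-fold lower, and fell over both durations by 4.20 ± 0.474 (adjusted p = 0.00125). It was about as low at every other level of restriction for 1 month, and lowest at 20%, with differences of -3.91, -3.81 and -4.13. Tubb2a, a beta-tubulin, read 8.76 and 9.02 against 6.57 and 6.59, 4.96-fold lower, and differed by -3.70, -3.72 and -3.67 at 5, 10 and 20%. Slc34a2, a sodium phosphate cotransporter, read 5.75 and 5.76 against 3.17 and 3.74, at least 4.64-fold lower, and stepped down over the pools of 1 month at -0.61, -1.34, -1.71 and -2.30. Fabp5, a fatty acid binding protein, read 9.12 and 9.02 against 7.01 and 7.04, 4.12-fold lower. Cmtm6, a membrane protein, was 3.76-fold lower and recurred at 1 week (-2.06). Hes6, a transcriptional cofactor of the Hes family, read 8.94 and 8.78 against 7.77 and 7.55, and its slope over 30 percentage points at 1 month was -1.14 ± 0.148 (limma adjusted p = 0.0293).

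Lama3, a laminin chain of basement membranes, read 4.44 and 4.20 in the control and 7.08 and 7.06 at 30%, 6.73-fold higher, and rose over both durations by 2.51 ± 0.44 (adjusted p = 0.0113). Angel2 was 3.97-fold higher, with control arrays at 2.74 and 4.47. Trim36 was at least 2.66-fold higher and rose over both durations (adjusted p = 0.0122). Ppard, a nuclear receptor of the PPAR family, read 6.46 and 6.02 against 3.68 and 4.96, 3.78-fold lower, and fell over both durations by 1.41 ± 0.258 (adjusted p = 0.0134).

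Several further genes were dim, and in some the arrays of a pool were far apart. Hps4 read 4.67 and -0.04 in the control and 5.57 and 5.70 at 30%, at least 4.27-fold higher, and the call was lost without the second control array. Pla2g12a (3.17 and 1.23), Map2k6 (1.43 and 4.17) and Ablim3 (2.05 and 3.90) also had control arrays far apart, with bounds of at least 3.44-fold, 3.81-fold and 3.78-fold higher, of which Pla2g12a (adjusted p = 0.0128) and Ablim3 (adjusted p = 0.0356) rose over both durations. Sult5a1 read 3.46 and 3.37 against 6.04 and 5.39, at least 4.51-fold higher, and differed by -0.40 at 1 week. Entpd6 (at least 2.83-fold lower), Flnc (at least 2.63-fold) and Tmem171 (at least 2.88-fold) did not pass over both durations. Within the 30% pool the arrays were far apart for Fbxo34 (2.95 and 5.48), Mapre3 (4.84 and 2.70) and Tnni1 (0.68 and 4.61). At 1 week Fbxo34 differed by -0.11 and Mapre3 by -0.04.

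Markers of other liver cells differed in a minority of genes. Of 8 measured Kupffer cell and macrophage markers 6 were above the control, with a median of 0.49, and Cd14 passed at 2.33-fold higher. The mean log2 level of the list was 6.38 and 6.46 on the control arrays and 6.88 and 6.68 on the 30% arrays. Clec4f, specific to Kupffer cells, differed by 0.43, Csf1r by -0.28 and C1qc by 0.10. Of 6 endothelial markers 4 were above the control, with a median of 0.62, mean log2 levels of 4.95 and 5.04 against 5.33 and 5.53, and Ehd3 past the rule at 2.17-fold, a call lost without the first control array, without the second 30% array and on the signals as deposited. None of 12 stellate cell and fibroblast markers, 4 bile duct markers, 3 blood cell markers or 1 marker of pancreas, fat and muscle passed. Of all named genes 4.71% passed, so 0 or 1 call in marker lists this short says little about a cell type. Of the 12 blood cell markers on the array 9 lay under the signal filter, as did 7 of 8 for pancreas, fat and muscle. The part of cell composition in the differences was not tested.

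To show where 30% restriction stood apart from milder restriction, its arrays were compared with the 6 arrays of the 5, 10 and 20% pools of 1 month, without the control. By the same size rule 73 named genes (1.03%) passed, 25 higher (0.354%) and 48 lower (0.68%). Dbp differed from the milder pools by -2.75, Nr1d1 by -1.86 and Bmal1 by 1.89. Hsd17b2 differed by -1.37, Tubb2a by 1.39, Igfbp1 by 1.48, Onecut1, a liver transcription factor, by -1.84 and Rgs16, a regulator of G protein signalling, by -1.58. For Dbp, Bmal1, Hsd17b2 and Tubb2a the milder pools lay on one side of the control and the 30% pool was closer to the control than they were. Fasn (-1.08), Me1 (-1.07), Elovl6 (-1.02), Cyp2c12 (-1.43) and Slc34a2 (-1.08) were further from the control at 30% than at the milder levels. Atp1b1, a subunit of the sodium pump, differed by 1.15. Acly, Acaca, Scd, Srebf1, Fdps, Pmvk and Gckr were also lowest at 30%, without passing this rule against the milder pools. Not all lipid genes shared this order, with Insig1 lowest at 5% and Dhcr7 at 10%. Per2 was as high at 30% as in the milder pools.

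A dose slope fitted to the 5 pools of 1 month passed the threshold for 3 probe sets (0.0315%), all falling, which were Abcc2, Hes6 and 1 probe set without a named gene. Without the 30% pool of 1 month, or the 5% pool of 1 week, which shares the estimate of spread, 0 passed. At an unadjusted p under 0.05 there were 996. The difference between the slopes of 1 month and 1 week was past the threshold in limma for 0 probe sets (0%), and 523 had an unadjusted p below 0.05, the lowest adjusted p being 0.606. Hamp (3.81 over 30 percentage points, 1 month minus 1 week), Fam171a1 (2.99) and Lzts2 (2.65) had the smallest p among genes with a higher slope at 1 month, and Nono (-1.20), Snrk (-2.09) and Ighl2 (-3.87) among those with a lower one. None of these passed the adjusted threshold, which does not show that the durations acted alike.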

How the data were processed

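Liver RNA was measured on 20 Affymetrix arrays, 2 for each of 10 pools of 5 rats. The deposited intensity values are linear MAS5 signals, per the submitters' processing notes. The MAS5 version is not given in the sources used here. Of 15923 probe sets 57 controls were not tested, 32 zeros were replaced by the lowest positive signal on the same array, log2 values were quantile normalized over 20 arrays, and the upper 60% by mean signal (9520 probe sets) were tested. Of these 8120 had 1 gene in the platform table, 245 several and 1155 none.

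With 1 pool a side, the size rule (at least 1 on the log2 scale, arrays not overlapping) took the place of a test. Limma 3.58.1 in R 4.3.3 was fitted to 10 pool means with Benjamini-Hochberg adjustment (0.05), with restriction levels and duration as terms for 30% against control, and slopes by duration for dose. Its p-values measure the departure of pools from the fit, not on the spread between rats, and the number of arrays limits the precision. Scripts were tested on simulated data. Named genes were the 15 largest differences each way by size, the 6 largest each way with a bound, up to 4 called members of each list, a set of genes named whatever their value, the leading genes of the slope and the 30% fits, and 3 each way for the slope difference, and some of the list, fixed-set and fit genes were left out. One gene that the rule names is not reported here. Members and lists were chosen with earlier results of these data known. Scaling, filter, size, left-out arrays and pools, variance model, the Gapdh ratio and a replicate block were tried as alternatives. Same-numbered arrays deviated together at correlations of -0.047 to 0.121, so numbers do not pair samples. Promoter sequences are from RefSeq, GRCr8, and the build behind the array design is not given in the sources used here.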

Additional observations from a re-analysis of the deposited data

Results flagged for a closer look

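Of the 101 genes selected for naming, for 5 every 30% array lay on one side of the control at 1 month and on the opposite side at 1 week. Nono and Ighl2 were selected for a small p of the slope difference, so a difference between the durations was built into their choice. Arrays did not overlap at 1 month in 47.3% of all 7055 named genes, and the share with opposite sides at 1 week was not counted. These differences between the durations were not tested array by array, since each side is 1 pool. Cish, a growth hormone target, differed by 1.09 at 1 month and -1.07 at 1 week. Ighl2 differed by -1.99 against 1.67, Tnni1, a muscle troponin, by -2.43 against 2.03, Nono by -0.37 against 0.74 and Nr1d1, which encodes REV-ERB alpha, by -0.58 against 0.86. The related test of the slope difference did not pass for any of the 5 (limma adjusted p from 0.606 to 0.973).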

How the results depend on the processing

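The 472 probe sets past the size rule became 1812 with no signal filter, 200 in the upper 40% by signal, 1433 at a size of 1.5-fold, 148 at 3-fold and 245 with the replicate block that compared same-numbered arrays, and ranged from 613 to 769 with 1 array left out. The 355 with the same sign at 1 week became 1035, 187, 1056, 116 and 208, and 428 to 540. On the signals as deposited 5 genes of cholesterol synthesis and 5 of peroxisomal oxidation passed, and 2 to 4 genes of glucocorticoid and metal response passed with 1 array left out. These list counts were chosen as alternatives after seeing the data. The 431 probe sets of the fit over both durations became 261 as deposited, 251 with median centring, 114 without a variance trend, 199 with the Gapdh ratio, 1001 with the replicate block and 107 to 572 with 1 pool or array number left out. The 3 slope calls became 0 without a trend, 0 with the Gapdh ratio, 156 with the block and 0 to 6 with a pool left out. The 0 calls of the slope difference became 1 as deposited, 2 with the block and 0 to 11. The cause was not tested. No called difference of a named gene changed sign, while 6 small differences did on the signals as deposited (Cyp2c11, Fgf21, Hamp, Igfbp2, Pdk4 and Snrk). Of 80 named genes past the size rule 68 passed as deposited, 80 with median centring and 64 with the block. Dim signals limit the differences that depend on a bound.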
